A study of Mus musculus with 16 samples.

Results

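A set of 40 cell cycle genes that mark dividing cells was followed in the white fat of obese mice fed an extract of the plant Artemisia scoparia. They were chosen by name, 16 for DNA replication and 24 for mitosis, with earlier results of these data known. They were matched to the arrays' probes by their current symbol or an older one (CDK1 through CDC2A). Names are written in capitals as the arrays give them. Of the 40 members, 36 had a probe among the 17916 gene names on the arrays, and 31 passed the detection filter and were tested among 11050 genes, 14 for replication and 17 for mitosis. The filter asked for detection on at least 4 of the 16 arrays, which a gene can meet through 1 group alone. GINS1, MKI67 and KIF20A matched no probe by name. The arrays carry AIM1, an older name shared by AURKB and other genes, which was not taken as AURKB. Probes for POLA1, CCNB2, BUB1 and CENPE were detected on 0 of the 16 arrays and the CCNA2 probe on 1, so these 5 members were not tested, and MKI67, the most widely used marker of cycling cells, is not analysed here.

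RNA was measured on 16 Illumina bead arrays, 4 for each of iWAT scoparia, iWAT control, eWAT scoparia and eWAT control. iWAT is inguinal fat, a depot under the skin, and eWAT is epididymal fat, a depot inside the abdomen. All mice were male C57BL/6J, singly housed and made obese on diet D12492 with 60% of its energy as fat, which every group ate. The scoparia mice ate it with 1% of the extract by weight and the control mice without it, for 4 weeks, beginning at 17 weeks of age and ending at 21 weeks, and the labels give 8 animal numbers that recur in both depots. Whole tissue was used, so fewer cells of a type and less RNA per cell cannot be told apart.

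A cell that prepares to divide loads the ring-shaped MCM helicase onto its DNA with the help of CDC6 and CDT1, and the kinase CDC7 with its activator DBF4 then lets origins fire. Ribonucleotide reductase (RRM1, RRM2), thymidylate synthase (TYMS) and thymidine kinase (TK1) supply the building blocks, and PCNA clamps the polymerases to DNA. Mitosis follows under CDK1 with B-type cyclins, while motor proteins such as KIF11 and KIF15 push the spindle apart, TOP2A untangles the sister chromosomes, and PRC1 and KIF23 build the bridge at which the daughter cells separate. Mature adipocytes rarely divide, and in obese mice dividing cells of fat are known to include macrophages, other immune cells, progenitors and endothelium.

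Replication and mitosis genes are also known for different promoter elements: E2F sites for replication genes, and for mitosis genes the cell cycle homology region (CHR), often together with CCAAT boxes, to which the factor NF-Y binds. The promoters of 4 mitosis members and 1 replication member are shown because they hold these letters and because the members, apart from CDK1, passed in a comparison that follows. They come from RefSeq on build GRCm38.p6 and end at the base before the annotated start. Capitals mark CHR letters (TTTGAA or TTCGAA), E2F letters (TTTGGCGC, TTTCCCGC, TTTGCCGC or TTTCGCGC) and CCAAT boxes, read on either strand. Adjoining or overlapping E2F matches, and the E2F and CHR letters that abut in KIF15, run together as 1 stretch of capitals. TOP2A is at chr11:99024190-99024439 (minus strand), KIF11 at chr19:37376232-37376381 (plus strand), KIF15 at chr9:122950931-122951080 (plus strand), CDK1 at chr10:69352913-69353062 (minus strand) and MCM6 at chr1:128359706-128359855 (minus strand).
TOP2A: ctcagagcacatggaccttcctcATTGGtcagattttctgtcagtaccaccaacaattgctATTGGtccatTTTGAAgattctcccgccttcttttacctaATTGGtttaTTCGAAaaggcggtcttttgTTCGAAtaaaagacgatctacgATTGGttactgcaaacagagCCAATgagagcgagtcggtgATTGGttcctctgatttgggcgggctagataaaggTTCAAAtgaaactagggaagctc
KIF11: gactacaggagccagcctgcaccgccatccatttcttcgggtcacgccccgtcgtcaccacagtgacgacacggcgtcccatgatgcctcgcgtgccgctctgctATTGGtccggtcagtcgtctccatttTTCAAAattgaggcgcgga
KIF15: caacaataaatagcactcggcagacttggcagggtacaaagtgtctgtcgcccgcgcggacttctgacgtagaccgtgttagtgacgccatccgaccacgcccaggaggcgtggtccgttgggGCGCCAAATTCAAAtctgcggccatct
CDK1: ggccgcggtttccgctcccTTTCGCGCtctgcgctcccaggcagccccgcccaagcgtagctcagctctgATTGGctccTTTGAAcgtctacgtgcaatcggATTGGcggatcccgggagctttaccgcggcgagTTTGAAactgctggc
MCM6: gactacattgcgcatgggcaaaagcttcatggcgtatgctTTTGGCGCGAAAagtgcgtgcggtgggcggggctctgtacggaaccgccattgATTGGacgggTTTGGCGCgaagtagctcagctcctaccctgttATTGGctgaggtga

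Windows of 300 bases, 250 before and 50 after a start, were given for 34 of the 40 members (36 windows, since MCM7 and PRC1 had a pair each). CHR letters stood in 16 of 21 windows of mitosis members (76.2%) and in 3 of 15 windows of replication members (20%), against 19.2% of all 32851 windows. E2F letters stood in 2 of 21 mitosis windows (9.52%) and 7 of 15 replication windows (46.7%), against 2.26% of all windows. CCAAT boxes stood in 18 of 21 mitosis windows (85.7%) and 10 of 15 replication windows (66.7%), against 37.4% of all windows. The TOP2A window held 4 CHR and 6 CCAAT matches, and the MCM6 window 3 E2F matches, with 0 CHR matches. The DBF4 window was 1 of the 3 replication windows with CHR letters. Such matches describe the letters and do not show that a factor binds there.

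Signals are given as log2 values after background correction and quantile normalization, and differences as log2 values ± SE from a fit that shares 1 estimate of the spread among all groups. A gene passed when its limma p, adjusted by Benjamini-Hochberg over all 11050 genes, was under 0.05. Between 50.5% and 56.2% of 25697 probes were detected per array, and the number of arrays limits the precision. The share detected was 52.7% to 56.2% on iWAT scoparia arrays and 50.5% to 52.1% on iWAT control arrays. On the second principal component of all tested genes, iWAT control arrays 1 and 4 stood apart at 48.7 and 34.2, while the other 6 iWAT arrays lay between -59.9 and -13.8.

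The first question was whether the extract went with more or less of these transcripts in inguinal fat. Of the 31 tested members, 9 were higher in iWAT scoparia than in iWAT control and 0 were lower. Of all genes tested, 4.41% were higher and 4.39% lower. Since the members were chosen with earlier results of these data known, setting their share beside that of all genes is a description only. At an unadjusted limma p under 0.05 were 11 members, all positive, and 3626 of all 11050 genes, 1750 of them positive. Mitosis members made up 7 of the 9 (TOP2A, NUSAP1, KIF15, KIF23, CENPQ, KIF11 and PRC1), and DBF4 and RRM2 were the replication members. The difference was positive for 16 of 17 mitosis members with a median of 0.60, and for 11 of 14 replication members with a median of 0.32, while the median of all genes was -0.06. Without iWAT control array 3, 12 mitosis members (median 0.32) and 9 replication members (median 0.04) were positive. With arrays scaled to equal medians in place of equal quantiles, 9 members passed, and the split over all genes was 665 higher and 1231 lower in place of 487 and 485. With the spread taken from the 8 iWAT arrays alone, 0 members and 0 genes passed. Without iWAT control array 4 the count was also 0, without iWAT scoparia array 3 it was 0, without iWAT control array 1 it was 1 and without iWAT scoparia array 2 it was 5. Of all 11050 genes, 0, 0, 5 and 201 passed in these fits, in the same order.

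Among genes that start replication, DBF4, which activates the CDC7 kinase at origins, had 7.78, 8.23, 8.33 and 8.53 in iWAT scoparia, against 6.27, 7.29, 7.17 and 6.57 in iWAT control. Every scoparia array lay above every control array, and the difference was 1.40 ± 0.23 (2.63-fold, adjusted p = 0.0182). The MCM helicase subunits did not pass. MCM4 had 10.07, 10.40, 10.59 and 10.90 in iWAT scoparia, against 8.83, 10.37, 10.04 and 8.92 in iWAT control. Its control arrays 1 and 4 were low and control array 2 lay within the scoparia range, with a difference of 0.95 ± 0.33 (adjusted p = 0.0678). MCM2 had 6.75, 7.20, 7.65 and 8.24 in iWAT scoparia, against 7.63, 7.36, 6.48 and 7.77 in iWAT control. These groups overlapped, with a difference of 0.15 ± 0.32 (adjusted p = 0.773) that was -0.13 without iWAT control array 3. The differences of MCM6, MCM5 and MCM3 were 0.72, 0.38 and 0.01 (adjusted p = 0.123, 0.49 and 0.99). MCM7 was detected on 4 of the 16 arrays, on 0 of the iWAT scoparia arrays and 2 of the iWAT control arrays, and no fold is given for it. The loading factors CDT1 and CDC6 had differences of 0.69 ± 0.42 and -0.03 ± 0.27 (adjusted p = 0.264 and 0.948).

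Among genes for nucleotide supply and the clamp, RRM2, the cell cycle regulated subunit of ribonucleotide reductase, had 5.98, 6.20, 5.93 and 6.13 in iWAT scoparia, against 5.53, 5.60, 5.10 and 4.81 in iWAT control. The groups did not overlap, and the probe was detected on 2 of the 4 control arrays, so the difference of 0.80 ± 0.19 (1.74-fold, adjusted p = 0.0278) rests partly on values near background. A second RRM2 probe gave 0.16 ± 0.28, so the probes of this gene disagreed in size. PCNA had 7.61, 7.33, 7.86 and 7.81 in iWAT scoparia, against 7.69, 7.50, 7.40 and 7.66 in iWAT control. Its groups lay in the same range, with a difference of 0.09 ± 0.36 (adjusted p = 0.881). The large subunit RRM1, the thymidine kinase TK1 and the thymidylate synthase TYMS had differences of 0.26, 0.46 and -0.07 (adjusted p = 0.416, 0.473 and 0.849). TK1 spread widely among controls, at 7.91, 6.63, 5.85 and 8.06 in iWAT control arrays 1 to 4.

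Among genes that act on chromosomes and the spindle, TOP2A, the topoisomerase that separates sister chromatids, had 7.44, 7.63, 8.28 and 8.65 in iWAT scoparia, against 6.49, 6.67, 6.17 and 5.85 in iWAT control. No arrays overlapped, and the difference of 1.71 ± 0.27 (3.27-fold, adjusted p = 0.0182) was the largest of the 31 tested members. KIF11, the motor that pushes spindle poles apart, had 5.74, 5.54, 5.96 and 6.52 in iWAT scoparia, against 4.97, 4.89, 4.51 and 4.77 in iWAT control. KIF11 was detected on all 4 scoparia arrays and on 0 of the 4 control arrays, so only a bound is given, at least 1.71-fold higher in scoparia (measured means 5.94 and 4.79, adjusted p = 0.0182). The bound sets the mean of the scoparia arrays against the lowest signal among detected probes on each control array or the probe's own value, whichever was higher. KIF15, a motor that works beside KIF11, had 6.02, 6.91, 6.46 and 6.99 in iWAT scoparia, against 5.21, 5.65, 5.50 and 4.83 in iWAT control. It was detected on 2 of the 4 control arrays, the groups did not overlap, and the difference was 1.30 ± 0.27 (adjusted p = 0.019). NUSAP1, which bundles spindle microtubules around chromatin, had 8.15, 8.39, 8.30 and 8.80 in iWAT scoparia, against 6.76, 7.09, 7.41 and 7.17 in iWAT control. It did not overlap between groups and differed by 1.30 ± 0.26 (2.46-fold, adjusted p = 0.019).

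PRC1, which crosslinks the microtubules of the central spindle, had 9.33, 9.51, 9.20 and 9.37 in iWAT scoparia, against 8.71, 8.45, 7.72 and 8.45 in iWAT control. Its scoparia arrays lay close together above all controls, with a difference of 1.02 ± 0.25 (2.03-fold, adjusted p = 0.0285). KIF23, a motor of the same central spindle, had 6.93, 7.21, 7.26 and 7.66 in iWAT scoparia, against 6.13, 6.40, 6.21 and 5.58 in iWAT control. The groups were apart and differed by 1.19 ± 0.21 (2.28-fold, adjusted p = 0.0182). CENPQ, a kinetochore protein that sits on centromeres through the cycle, had 6.81, 7.09, 7.04 and 7.13 in iWAT scoparia, against 5.38, 6.38, 5.95 and 5.66 in iWAT control. Its difference was 1.17 ± 0.30 (2.26-fold, adjusted p = 0.0314), again without overlap.

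**Figure D1:**
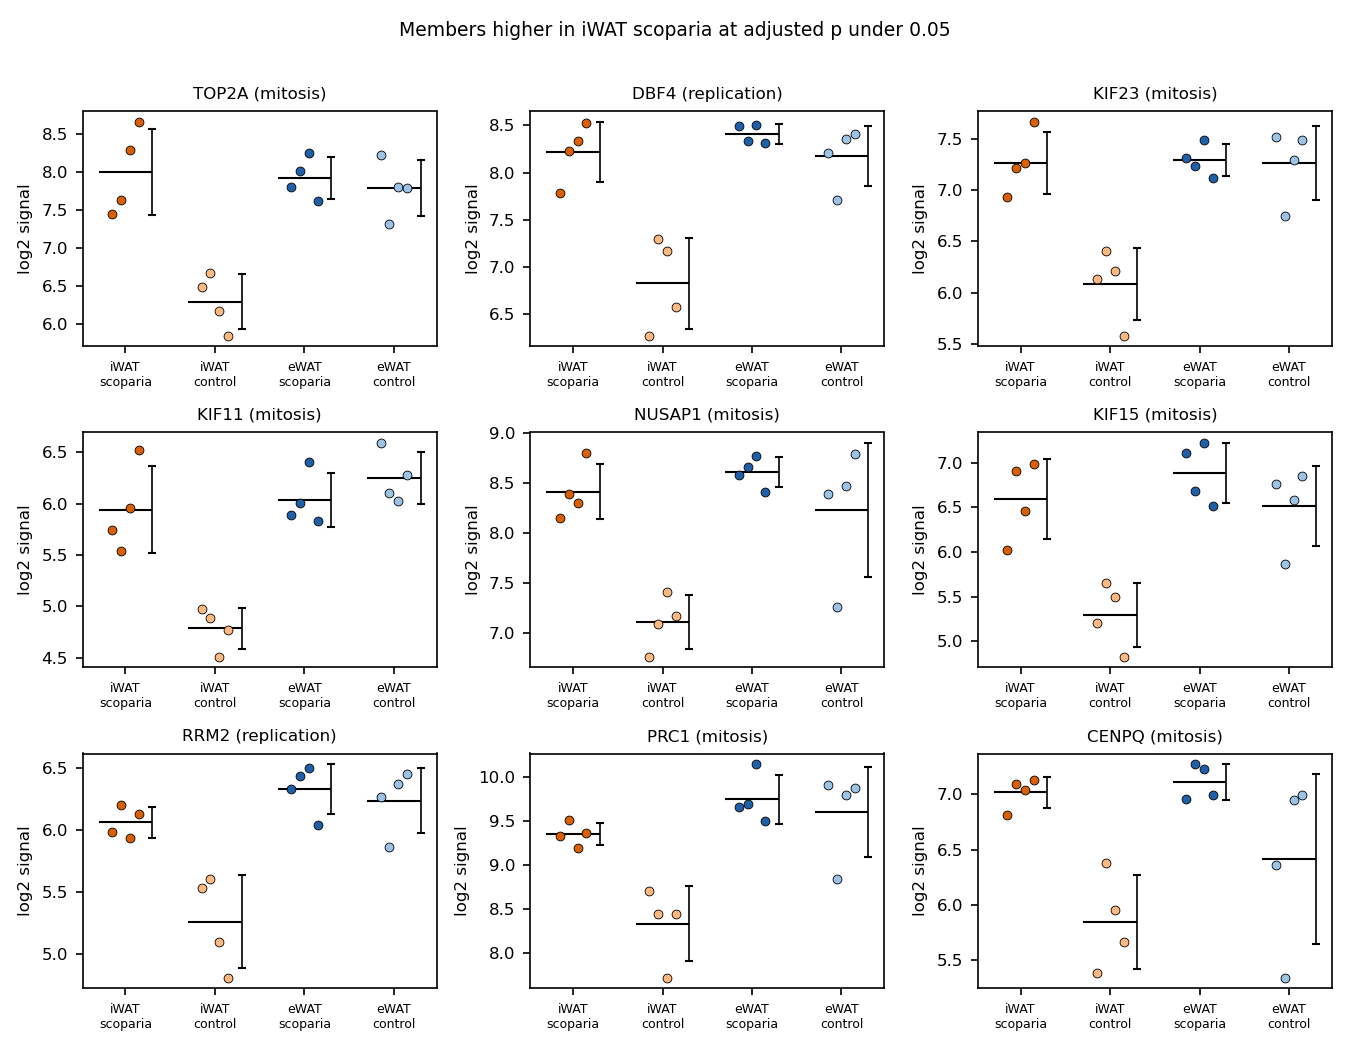
Each panel plots the log2 signal (vertical axis) of 1 of the 9 members that passed in inguinal fat, with 4 arrays for each of the 4 groups on the horizontal axis. Points are arrays, the horizontal line is the group mean and the bar is ± 1 SD (n = 4). The members were chosen because they passed between iWAT scoparia and iWAT control, so the separation of these groups in the panels largely follows from that choice. TOP2A averaged 8.0 in iWAT scoparia and 6.29 in iWAT control.

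The other 10 tested mitosis members did not pass in inguinal fat. CDK1, the kinase that starts mitosis, had 7.41, 7.34, 7.60 and 7.41 in iWAT scoparia, against 8.34, 6.93, 6.03 and 7.61 in iWAT control. The scoparia arrays lay inside the wide control range, with a difference of 0.21 ± 0.37 (adjusted p = 0.709) that was -0.18 without iWAT control array 3. CCNB1, its cyclin B1 partner, had 6.29, 6.53, 6.53 and 6.71 in iWAT scoparia, against 6.43, 5.67, 5.57 and 5.98 in iWAT control. Control array 1 lay within the scoparia range, and the difference was 0.60 ± 0.33 (adjusted p = 0.216). CDC20, an activator of the anaphase-promoting complex, had 7.58, 7.65, 7.73 and 7.85 in iWAT scoparia, against 8.16, 7.06, 5.70 and 8.40 in iWAT control. Its SD was 0.12 in iWAT scoparia and 1.24 in iWAT control, and the difference was 0.37 ± 0.42 (adjusted p = 0.558), or -0.17 without iWAT control array 3. The polo kinase PLK1 and the Aurora kinase AURKA differed by 0.25 ± 0.36 and -0.11 ± 0.29 (adjusted p = 0.649 and 0.807), and PLK1 was at -0.12 without iWAT control array 3. TPX2, which activates Aurora A, the checkpoint kinase BUB1B, the passenger protein BIRC5 and the centromeric histone CENPA had differences between 0.30 and 0.60 (adjusted p between 0.183 and 0.557). UBE2C, the ubiquitin-conjugating enzyme of the anaphase-promoting complex, was detected on 1 of the iWAT scoparia arrays and 0 of the iWAT control arrays and is below background for this comparison.

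**Figure D2:**
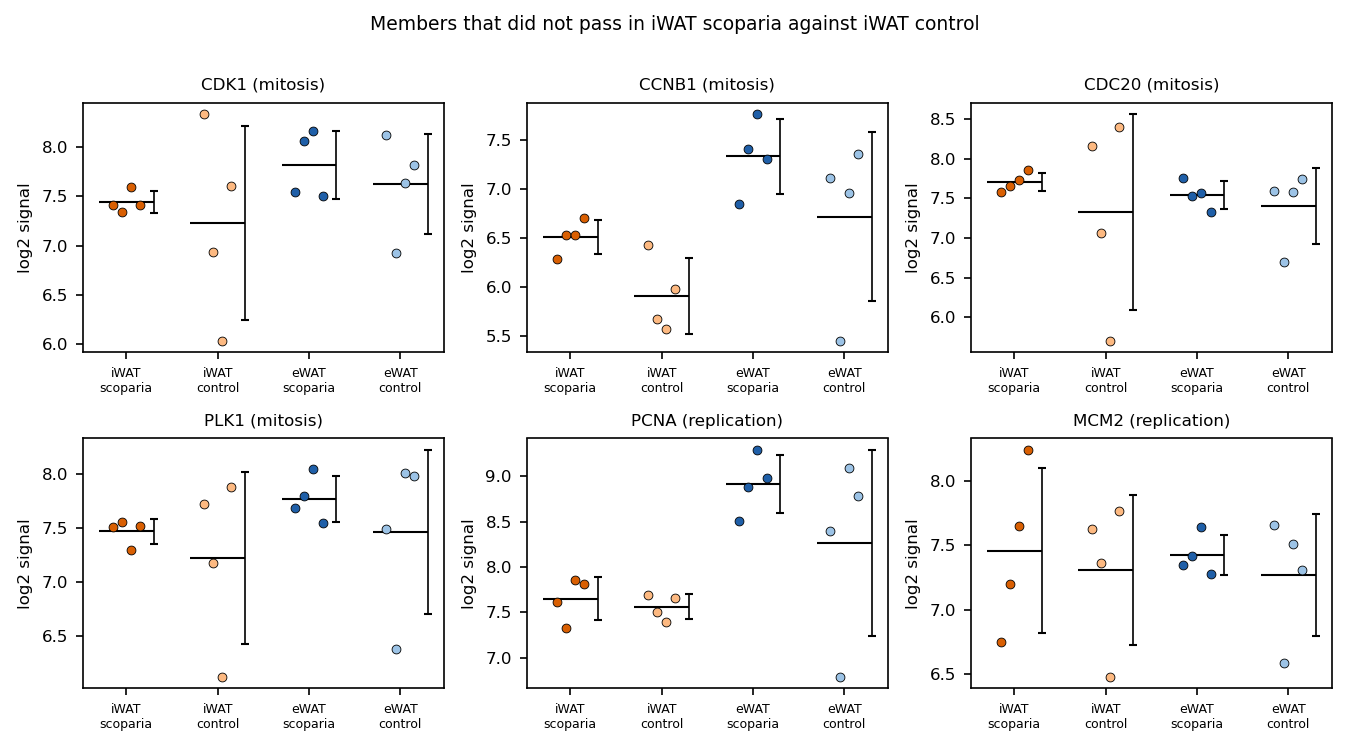
Each panel plots the log2 signal (vertical axis) of 1 member that did not pass in inguinal fat, by group (horizontal axis, 4 arrays each). Points are arrays, the line is the mean and the bar ± 1 SD. CDK1, CDC20 and PLK1 spread widely in iWAT control, where array 3 was the lowest of the 4, and lay close together in iWAT scoparia.

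Within a group, the same array was often the highest or the lowest across members. In iWAT scoparia, array 4 was highest for 22 and array 1 lowest for 22 of the 31 members, and in iWAT control array 3 was lowest for 20. In eWAT scoparia, array 3 was highest for 29, and in eWAT control array 2 was lowest for 27. The median SD over members was 0.32 in iWAT scoparia, 0.45 in iWAT control, 0.19 in eWAT scoparia and 0.51 in eWAT control, beside 0.26, 0.38, 0.17 and 0.29 as the median over all tested genes in the same groups.

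In epididymal fat the same diet comparison gave 0 members and 0% of all genes past the threshold (limma), with 1 member and 654 genes at an unadjusted p under 0.05. Differences were positive for 12 of 14 replication members and 16 of 17 mitosis members, with medians of 0.24 and 0.20 beside 0.03 for all genes. These signs rest on eWAT control array 2: without it, 7 of 14 replication members and 6 of 17 mitosis members were positive, with medians of 0.02 and -0.06. CENPQ had 6.96, 7.27, 7.23 and 6.99 in eWAT scoparia, against 6.36, 5.34, 6.95 and 6.99 in eWAT control. Control array 2 was low and the highest control array matched a scoparia array, with a difference of 0.70 ± 0.30 (adjusted p = 0.772). PCNA had 8.51, 8.88, 9.29 and 8.98 in eWAT scoparia, against 8.40, 6.79, 9.09 and 8.78 in eWAT control. It overlapped too and differed by 0.65 ± 0.36 (adjusted p = 0.896). CCNB1, CDC6, CENPA and MCM6 differed by 0.62, 0.48, 0.47 and 0.46 (adjusted p between 0.896 and 0.917). Without eWAT control array 2 the differences were 0.34 for CENPQ, 0.16 for PCNA, 0.19 for CCNB1, 0.20 for CDC6, 0.13 for CENPA and 0.05 for MCM6.

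With 1 value per animal, the mean of both depots, 0 members and 0% of all genes passed (limma), while 14 members and 2390 genes had an unadjusted p under 0.05. All 17 mitosis members and 12 of 14 replication members had a positive difference. The largest were CENPQ at 0.94 ± 0.16, TOP2A at 0.92 ± 0.18, NUSAP1 at 0.84 ± 0.18, KIF15 at 0.83 ± 0.12 and DBF4 at 0.82 ± 0.14. KIF23 followed by p at 0.61 ± 0.13, and these 6 shared an adjusted p of 0.157. Without control animal 3, 9 members passed as higher, beside 10.5% of all genes higher and 8.54% lower. With arrays weighted by their fit to their group, 10 members passed as higher and MCM7 as lower, beside 14.1% of all genes higher and 11.2% lower.

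The depots were then compared within each diet, as iWAT minus eWAT. In control mice, 10 members were lower in iWAT and 0 higher, beside 11.7% of all genes lower and 13.1% higher. The share of all genes lower was 6.8% without iWAT control array 4, 17.9% without iWAT control array 3 and 3.29% with the spread from the 8 control arrays alone, where 9, 9 and 7 members were lower. All 17 mitosis members and 10 of the 14 replication members were negative, with medians of -0.57 and -0.44 beside 0.08 for all genes. Without eWAT control array 2 these medians were -0.96 and -0.72, and without iWAT control array 3 they were -0.60 and -0.21, with 4 mitosis members positive. This comparison and the diet comparison in iWAT use the same 4 iWAT control arrays. TOP2A, described above in iWAT, had 8.22, 7.32, 7.80 and 7.79 in eWAT control, all above the iWAT control arrays, and the difference was -1.49 ± 0.27 (adjusted p = 0.00192). KIF11 had 6.59, 6.10, 6.03 and 6.28 in eWAT control. Since it was not detected on any iWAT control array, KIF11 is given only as at least 2.13-fold lower in iWAT control (measured means 4.79 in iWAT and 6.25 in eWAT, adjusted p = 0.000414).

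DBF4 had 8.21, 7.71, 8.36 and 8.41 in eWAT control and differed by -1.35 ± 0.23 (adjusted p = 0.00134). PRC1 had 9.91, 8.84, 9.80 and 9.88 there and differed by -1.28 ± 0.25 (adjusted p = 0.00306). Neither overlapped with iWAT control, although eWAT control array 2 came closest. KIF15, KIF23, NUSAP1 and RRM2 fell by 1.22, 1.18, 1.12 and 0.98 on the log2 scale (adjusted p between 0.00187 and 0.00839). NUSAP1 overlapped between the depots, since eWAT control array 2 (7.26) lay below iWAT control array 3 (7.41). KIF15 and RRM2 were detected on 2 of the 4 iWAT control arrays, and the second RRM2 probe gave -0.20 ± 0.28. TPX2 had 6.16, 5.51, 4.65 and 6.25 in iWAT control, against 7.05, 5.84, 7.34 and 7.23 in eWAT control. The TPX2 groups overlapped through eWAT array 2, with a difference of -1.22 ± 0.35 (adjusted p = 0.0205). MCM6 had 9.09, 9.44, 8.79 and 8.97 in iWAT control, against 10.27, 8.72, 10.44 and 10.37 in eWAT control. Its eWAT array 2 lay below all iWAT arrays, and the difference was -0.88 ± 0.31 (adjusted p = 0.0493). Without eWAT control array 2, 16 members were lower in place of 10, beside 14.8% of all genes lower.

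In scoparia mice the depots differed in PCNA alone among the 31 members, beside 6.24% of all genes lower and 4.35% higher in iWAT. Under equal medians that split over all genes was 374 higher and 886 lower, in place of 481 and 689, and 1 member passed. PCNA had 7.61, 7.33, 7.86 and 7.81 in iWAT scoparia, against 8.51, 8.88, 9.29 and 8.98 in eWAT scoparia. The depots did not overlap, and PCNA differed by -1.26 ± 0.36 (adjusted p = 0.0324). Leaving out any of the 4 iWAT scoparia arrays, or eWAT scoparia array 2, 3 or 4, ended this call. With array weights 10 members were lower, beside 16.6% of all genes lower and 16.9% higher. TPX2, CCNB1, MCM6, BIRC5 and PRC1 had differences of -0.88, -0.82, -0.62, -0.56 and -0.40 (adjusted p between 0.127 and 0.36). TOP2A averaged 8.0 ± 0.56 in iWAT scoparia and 7.92 ± 0.28 in eWAT scoparia, and KIF11 5.94 ± 0.42 and 6.04 ± 0.26 (SD, n = 4 each).

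**Figure D3:**
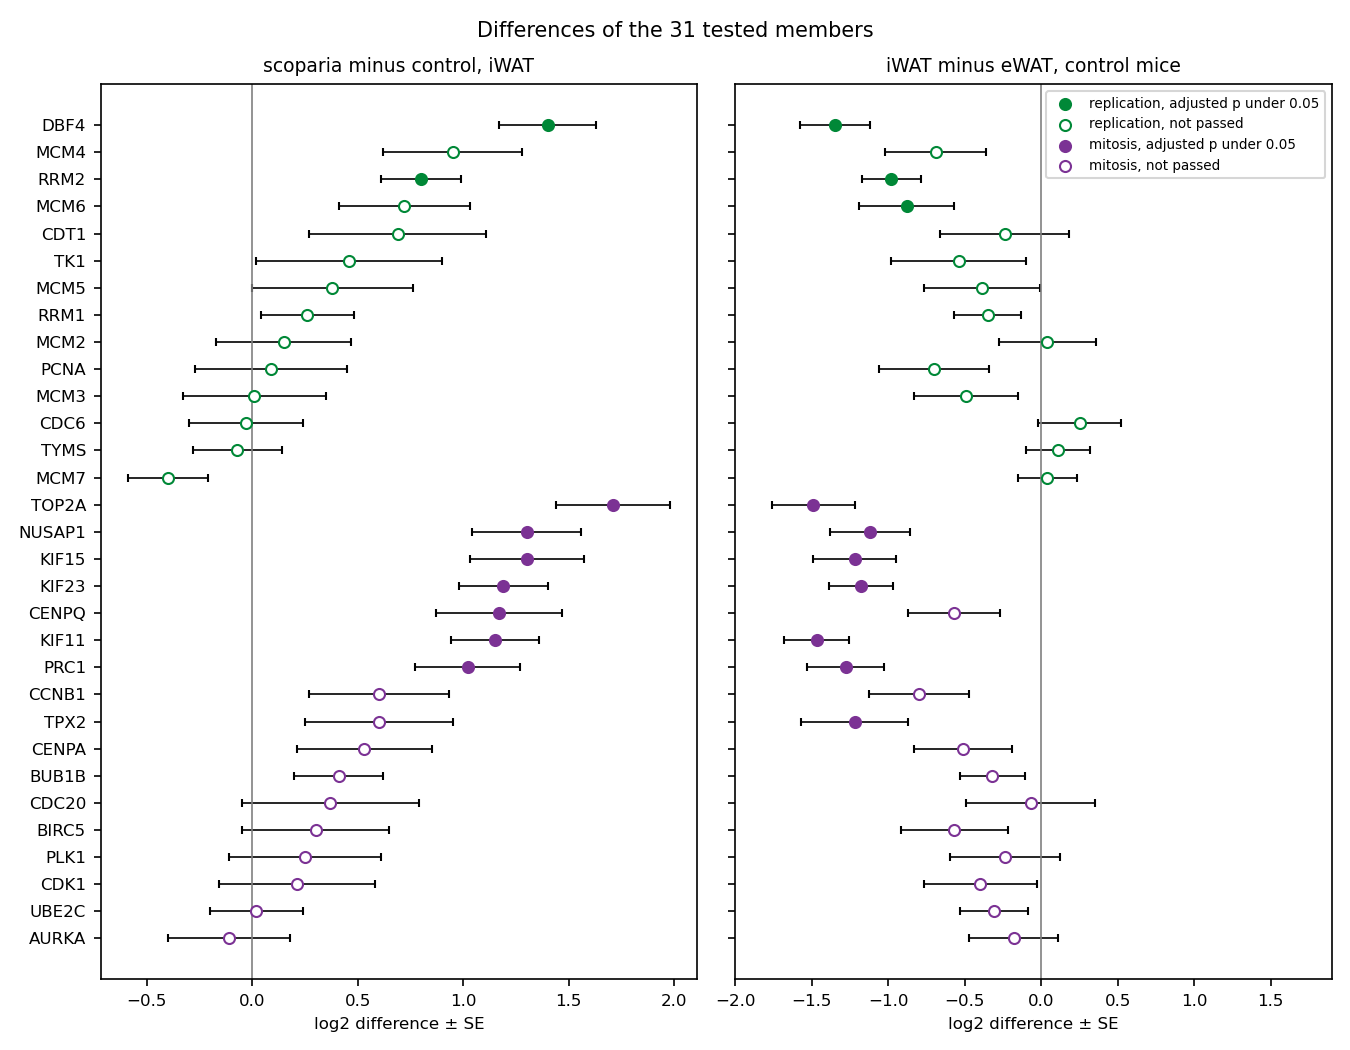
Log2 differences ± SE (horizontal axes) of the 31 tested members (vertical axis, replication above mitosis) for scoparia minus control in iWAT on the left and iWAT minus eWAT in control mice on the right. Filled points had an adjusted p under 0.05. TOP2A lies at 1.71 on the left and at -1.49 on the right, and both panels use the 4 iWAT control arrays. KIF11, MCM7 and UBE2C are drawn at measured differences although their probes were detected on 0 arrays of at least 1 group compared.

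A test of whether the diet effect differed between the depots gave 0 members past the threshold (limma), with 8 members at an unadjusted p under 0.05, beside 0.0543% of all genes called and 1793 genes at that unadjusted p. The iWAT effect exceeded the eWAT effect by 1.57 ± 0.38 for TOP2A (adjusted p = 0.0904) and by 1.17 ± 0.30 for KIF23 (adjusted p = 0.109). KIF11 had an adjusted p of 0.0688, and no size is given for it because it was not detected on any iWAT control array. DBF4 followed at 1.16 (adjusted p = 0.137), and KIF15, NUSAP1, PRC1 and RRM2 at 0.93, 0.92, 0.87 and 0.71 (adjusted p between 0.228 and 0.25). A diet effect particular to inguinal fat is therefore not shown for any member. Without iWAT control array 3, 4 members passed this test, beside 3.87% of all genes.

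Replication and mitosis members were set side by side by the mean of their centred log2 signals on each array, as a description without a test. The replication mean minus the mitosis mean was -0.14, -0.14, -0.01 and -0.02 in iWAT scoparia and 0.17, 0.32, 0.34 and 0.15 in iWAT control. All 4 iWAT control arrays thus lay above all 4 iWAT scoparia arrays in this balance. In eWAT it was -0.10, -0.02, -0.10 and -0.13 with scoparia and -0.09, -0.10, 0.02 and -0.14 without. The mitosis mean alone was 0.09 ± 0.24 in iWAT scoparia, -0.62 ± 0.34 in iWAT control, 0.38 ± 0.17 in eWAT scoparia and 0.14 ± 0.49 in eWAT control (SD, n = 4 each). The replication mean was 0.01 ± 0.29, -0.37 ± 0.26, 0.29 ± 0.19 and 0.07 ± 0.50 in the same order of groups.

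**Figure D4:**
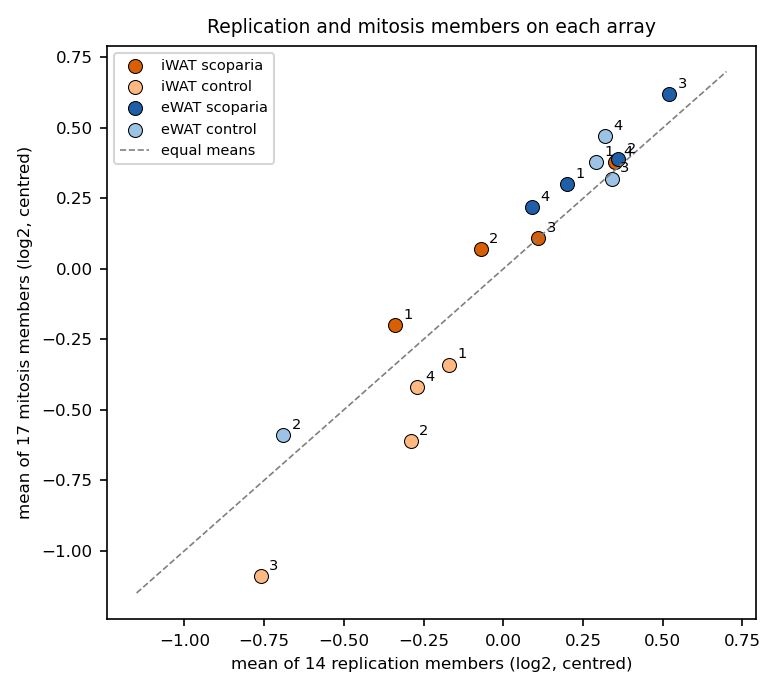
Mean centred log2 signal of the 14 replication members (horizontal axis) and of the 17 mitosis members (vertical axis) on each of the 16 arrays, with replicate numbers beside the points and a dashed line where both are equal. The 4 iWAT control arrays lie below the line, with a balance between 0.15 and 0.34, and the 4 iWAT scoparia arrays lie on or above it.

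Other genes of the same pathways were read against the members, on lists drawn up by function with earlier results of these data known. In inguinal fat, where 4.41% of all genes were higher and 4.39% lower, 3 of 37 tested other replication genes (8.11%) were higher in scoparia and 0 lower: CDC7, the kinase that DBF4 activates (1.23 ± 0.26, adjusted p = 0.0211), WDHD1, which links helicase and polymerase (1.10 ± 0.28, adjusted p = 0.0328), and the fork protection factor TIPIN (0.74 ± 0.19, adjusted p = 0.0334). Of 33 other mitosis genes 4 (12.1%) were higher and 0 lower. They were the kinetochore protein NDC80 (1.22), the spindle motor KIF4 (1.08), the spindle pole protein ASPM (1.08) and the cohesin protector SGO1 (0.89), with adjusted p between 0.0247 and 0.0396. In iWAT control these 4 averaged 5.05, 4.96, 4.80 and 4.93, and WDHD1 averaged 5.15. The lowest signal among detected probes on those arrays was 5.11 to 5.23, so the sizes of these differences rest on values near background. The median was 0.18 over the replication list and 0.42 over the mitosis list. None of the 23 tested G1 cyclins, E2F factors and Rb regulators passed in limma. At an unadjusted p under 0.05 were 3 of them, beside 3626 of all 11050 genes. Among 19 inhibitors and quiescence genes, CDKN1C, which encodes the kinase inhibitor p57, fell by 0.60 ± 0.17 on the log2 scale (adjusted p = 0.0413), and 0 passed as higher. This 1 of 19 (5.26%) stood near the 4.39% of all genes lower. Of the 19, 10 were positive, and of the 6 at an unadjusted limma p under 0.05, 5 were positive.

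In control mice, where 11.7% of all genes were lower in iWAT than in eWAT and 13.1% higher, 11 of the 33 other mitosis genes (33.3%) were lower and 1 was higher. NDC80 differed by -1.66 ± 0.29 (adjusted p = 0.00143) and ANLN, a cytokinesis scaffold, by -0.99 ± 0.18 (adjusted p = 0.00207). ASPM, CENPI and CEP55 fell by 1.10, 0.96 and 1.02, while the phosphatase CDC25B was higher by 0.79 (adjusted p between 0.0167 and 0.0337). In iWAT control NDC80, ASPM, CENPI and CEP55 averaged 5.05, 4.80, 4.57 and 5.12. The lowest signal among detected probes there was 5.11 to 5.23 per array, so their sizes rest on values near background. Of 37 other replication genes, 4 (10.8%) were higher in iWAT, a share below that of all genes, and 0 lower: the helicase factor CDC45 (0.83), the thymidylate kinase DTYMK (0.90) and the polymerase subunits POLD2 (0.71) and POLA2 (0.61), with adjusted p between 0.00977 and 0.0293. CCND2, SKP2 and CCNE2, which drive entry into S phase, were lower in iWAT by 1.46, 1.03 and 0.82 on the log2 scale (differences of -1.46, -1.03 and -0.82, adjusted p between 0.00908 and 0.0164), and 0 of the 23 G1 genes were higher. Those 3 of 23 (13%) stood near the 11.7% of all genes, and SKP2 and CCNE2 averaged 4.89 and 5.15 in iWAT control, also near background. Of the 19 inhibitors and quiescence genes, BTG2 and GADD45G were higher and CCNG1, MDM2, GADD45A and SESN1 lower. In scoparia mice, where 10.6% of all genes differed between the depots, 1 of 37 other replication genes passed (POLA2, 0.87), 1 of 33 other mitosis genes (ANLN, -0.63), 2 of 23 G1 genes (E2F1, -0.87, and E2F6, -0.66) and 3 of 19 inhibitors and quiescence genes (CDKN1C, -0.79, GADD45A, -0.73, and BTG1, 0.75). Their adjusted p lay between 0.00641 and 0.0366.

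Markers of the cells that a fat pad can hold were read on the same arrays. All 9 adipocyte markers were detected on all 16 arrays. For mesothelium, the sheet that covers abdominal fat, 5 or 6 of 6 tested markers were detected on each eWAT array and 0 or 1 on each iWAT array. B cell markers (7 of 9 tested) had mean signals of 6.85, 8.10, 9.22 and 10.21 in iWAT scoparia arrays 1 to 4, against 5.32, 8.57, 6.91 and 6.55 in iWAT control. All 7 were positive for diet in iWAT, with a median of 1.82. In limma 0 passed, although all 7 had an unadjusted p under 0.05, as did 3626 of all 11050 genes. In iWAT scoparia the mean of the 31 members, at -0.26, 0.01, 0.11 and 0.37, stood in the same order as the B cell mean. In iWAT control it was -0.27, -0.47, -0.94 and -0.35, and its highest array, array 1, had the lowest B cell mean. T and NK cell markers (7 of 10 tested) averaged 7.96, 8.91, 9.60 and 11.06 in iWAT scoparia, against 7.77, 9.68, 7.0 and 8.06 in iWAT control. All 7 were positive, with a median of 1.20, and PRF1, the perforin of killer cells, passed at 1.59 ± 0.34 (adjusted p = 0.0209). Of the germinal centre B cell markers, 3 of 6 were tested and 2 were positive. GCSAM passed at 0.89 ± 0.18 (adjusted p = 0.019), while S1PR2 averaged 6.20 in iWAT scoparia and 6.79 in iWAT control. GCSAM averaged 4.56 in iWAT control, below the lowest signal among detected probes there (5.11 to 5.23 per array), so its size rests on background values. Of the 7 adipose progenitor markers, 4 were positive, with a median of 0.42 and differences from -0.61 to 1.53. Among them CD55 passed at 0.70 ± 0.21 (adjusted p = 0.0494), and the progenitor mean was 10.70 to 11.16 in iWAT scoparia and 9.98 to 11.35 in iWAT control. The adipocyte mean was 12.48, 12.28, 12.13 and 11.92 in iWAT scoparia, the reverse order of the members. It was 12.74, 12.36, 12.47 and 12.67 in iWAT control, where arrays 1 and 4 were highest both in this mean and in the members. Of the 9 adipocyte markers 0 passed in limma, with 0 at an unadjusted p under 0.05 and a median of -0.46. Of the 6 endothelium markers 4 were positive, with a median of 0.10 and 0 at an unadjusted limma p under 0.05. The parts of lymphocytes, progenitors, adipocytes and endothelium in the diet result were not tested.

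For depot, all 7 macrophage and all 7 lipid-associated macrophage markers were lower in iWAT than in eWAT in both diets, with medians of -1.63 and -2.93 among scoparia mice and of -1.04 and -2.38 among control mice. Lymphocyte markers went the other way. All 7 B cell markers were positive in both diets, with medians of 3.41 among scoparia mice and 1.52 among control mice. Of the 7 T and NK cell markers, 7 were positive among scoparia mice (median 3.20) and 6 among control mice (median 1.89), where PRF1 was negative. All 6 endothelium markers were positive in both diets, with medians of 0.85 and 0.60 in the same order. The macrophage mean was between 9.50 and 9.95 on iWAT scoparia arrays and between 9.78 and 9.94 on iWAT control arrays. For diet in iWAT, 2 of the 7 macrophage markers were positive, with differences from -0.78 to 0.69 and a median of -0.26. Of these markers 0 passed in limma, and 2 had an unadjusted p under 0.05, 1 of them positive. In eWAT control the macrophage mean was 11.44, 10.25, 11.68 and 11.38, lowest on array 2, where the mean of the members was also lowest at -0.63 beside 0.33 to 0.40 on the other 3 arrays. On that array the lipid-associated macrophage mean was 9.87 beside 11.73 to 12.49, and the adipocyte mean 12.63 beside 11.47 to 11.88. Skeletal muscle markers averaged 9.53, 5.77, 8.78 and 7.10 in iWAT scoparia and 5.77, 8.67, 11.22 and 6.15 in iWAT control. The muscle mean was highest on iWAT control array 3, the array on which most members were lowest. The parts of macrophages, lymphocytes, endothelium and muscle in these results were not tested.

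**Figure D5:**
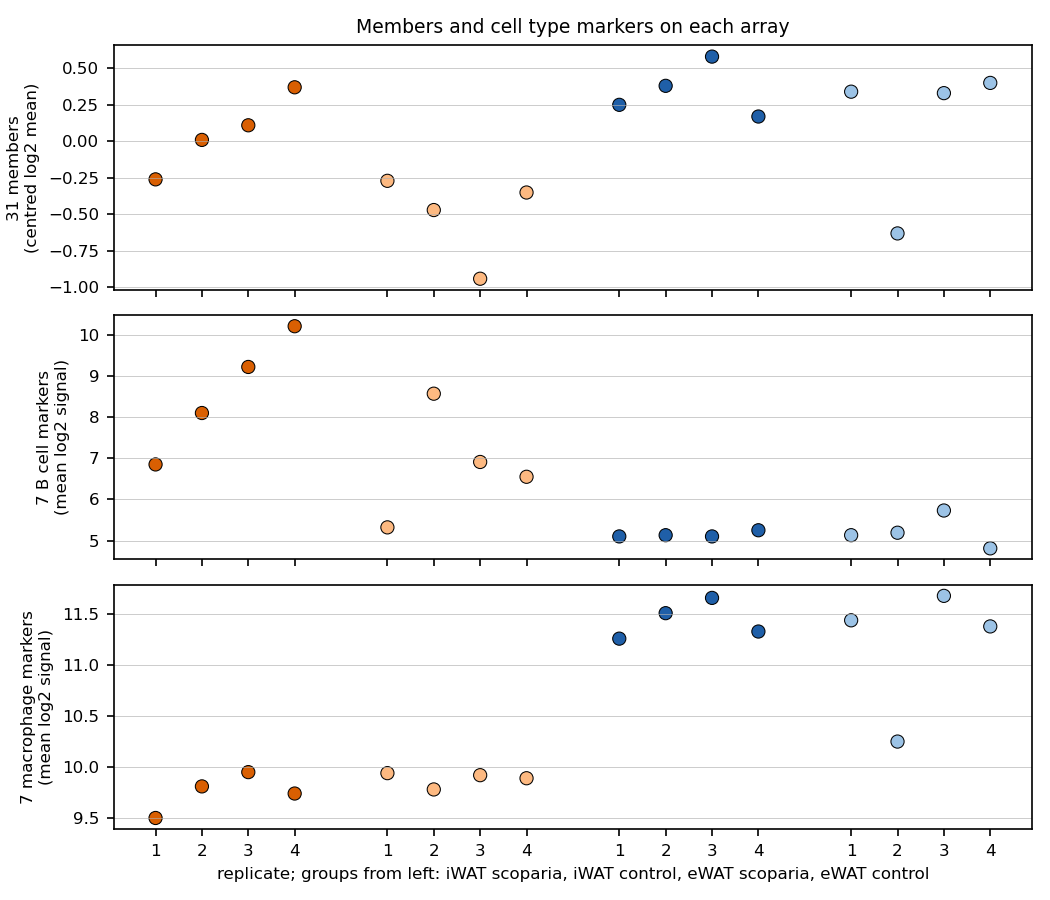
For each of the 16 arrays (horizontal axis, by group and replicate) the top panel plots the centred log2 mean of the 31 members, the middle panel the mean log2 signal of 7 B cell markers and the bottom panel that of 7 macrophage markers. The B cell mean reaches 10.21 on iWAT scoparia array 4, and the macrophage mean is 10.25 on eWAT control array 2, where the members are also low.

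A further kept probe existed for 7 tested members, 11 probes in all. For diet in iWAT 10 of these 11 had the sign of the tested probe, and for depot in control mice 11 of 11 did.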

How the data were processed

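RNA of 16 fat samples was hybridised to 1 array each. The deposited scanner values are signal intensities of 25697 probes, per the file headers, and each has a deposited detection p-value that sets it against negative control beads. The authors also deposited normalized intensities. GenomeStudio and limma 3.18.13 are named, per the submitters' processing notes, without their roles. The scanner intensities were corrected and quantile normalized with neqc (limma 3.58.1, R 4.3.3, offset of 16) and put on the log2 scale. A probe entered when its detection p-value was under 0.05 on 4 or more arrays (15052 probes), and the probe with the highest mean was tested for each of 11050 genes. Symbols were updated through RefSeq gene tables of GRCm38.p6, used for names only. By current symbol 20736 probes matched, 3872 through a synonym of 1 gene, while 104 had a synonym of several genes and 985 no match.

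Each comparison used lmFit and eBayes with 4 group means over 16 arrays, or 1 mean per animal over both depots, with Benjamini-Hochberg adjustment over all genes and a threshold of 0.05. The fits were tested on simulated data with independent noise and the same spread in every group. The real median SD over genes was 0.17 in eWAT scoparia and 0.38 in iWAT control. The simulation therefore could not test how unequal spreads bear on the calls. Every member past the threshold was named, filled up to 6 by p where fewer passed, together with MKI67 (no probe), TOP2A, CCNB1, CDK1, PCNA, MCM2 and RRM2, and for the other pathway lists the genes past the threshold up to 6 by p. Other members are given by their differences. Members, lists and tests were chosen with earlier results of these data known. The same animal number marks an iWAT and an eWAT array, which were taken as one animal. The deviations of an animal's arrays from their group means correlated between -0.207 and 0.315 (consensus 0.0615). Since the labels do not relate RNA samples to tissue pieces, the spread behind each p-value joins both. Alternatives changed the scaling, the background correction, the starting table, the filter, the probe rule, the estimate of spread, array weights, the block by animal and the arrays included. A slide block could not be run, since the files used here name no slides.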

Additional observations from a re-analysis of the deposited data

Results flagged for a closer look

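In 6 of the 124 sets of 4 arrays (31 tested members in 4 groups), 1 array lay far from the other 3 by Dixon's criterion, which chance alone meets in about 1 of 20 sets. All 6 were low values of eWAT control array 2, so the 6 are not independent. MCM6 was 8.72 there, with the others between 10.27 and 10.44. CDT1 was 6.82, with the others between 8.77 and 9.06, and TYMS was 7.29, with the others between 7.80 and 7.88. Of the mitosis members, BIRC5 was 6.64 (others 8.09 to 8.26), CDC20 was 6.69 (others 7.58 to 7.74) and PRC1 was 8.84 (others 9.80 to 9.91). Of these, MCM6 and PRC1 were lower in iWAT than in eWAT in control mice with this array included.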

How the results depend on the processing

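In eWAT, 0 members passed for diet in all 27 alternatives. For diet in iWAT (9 members), the count was 0 with only the arrays compared, lay between 0 and 11 when 1 array was left out, and was 0 without both iWAT control 1 and 4, an alternative chosen after seeing the data. Over both depots (0 members) it was 11 with array weights and lay between 0 and 9 when 1 animal was left out. For depot in scoparia mice (1 member) it was 0 with no filter on dim probes, 5 with only the arrays compared, 10 with array weights, and between 0 and 3 when 1 array was left out. For depot in control mice (10 members) it lay between 8 and 16 when 1 array was left out and was 9 without both iWAT control 1 and 4. For the difference between depots (0 members) it was 5 with array weights and between 0 and 4 when 1 array was left out. With the animal as a block, the counts were 9 for diet in iWAT, 0 in eWAT, 0 over both depots, 1 for depot in scoparia mice, 9 for depot in control mice and 0 for the difference, and no count moved by over 1.5 times. Of the members' differences followed over the alternatives, 10 changed sign in at least 1, all diet differences in iWAT that had not passed. When 1 array was left out, BIRC5 lay between -0.01 and 0.49, CDC20 between -0.17 and 0.73, PLK1 between -0.12 and 0.47, CDK1 between -0.18 and 0.59, MCM2 between -0.13 and 0.38, AURKA between -0.32 and 0.13, TYMS between -0.19 and 0.12, CDC6 between -0.18 and 0.12 and MCM3 between -0.30 and 0.30. With array weights MCM2 was -0.14, PCNA -0.05, CDC6 0.03 and MCM3 -0.30, under equal medians CDC6 was 0.05, and without both iWAT control 1 and 4 AURKA was 0.46, TYMS 0.30 and CDC6 0.26. The cause was not tested.

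Over all genes, 972 passed for diet in iWAT, against 1896 under equal medians, 2154 with array weights, 0 with only the arrays compared and between 0 and 3050 when 1 array was left out. For depot in control mice 2743 passed, against 718 with only the arrays compared and between 1500 and 4076 when 1 array was left out. For depot in scoparia mice 1170 passed, against 3693 with array weights, 2080 with only the arrays compared and between 687 and 1465 when 1 array was left out. For the difference between depots 6 passed, against 626 with array weights, between 1 and 428 when 1 array was left out and between 0 and 17 otherwise. Over both depots 0 passed, against 2796 with array weights and between 0 and 2101 when 1 animal was left out, and in eWAT 0 passed, against 147 with array weights and between 0 and 14 when 1 array was left out. Equal medians put the median difference of all genes at -0.24 for the difference between depots, against -0.08, and at -0.09 for depot in scoparia mice, against 0.02. TOP2A, DBF4, KIF23, KIF11 and PRC1 passed for depot in control mice in 27 of 27 alternatives, and for diet in iWAT in 23, 22, 22, 22 and 20 of 27. MCM6 passed for depot in 10 of 27. The slide as a block was not run. Members near background (KIF11, KIF15, RRM2, MCM7, UBE2C) have only limited precision.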
